A study of Homo sapiens with 6 samples.

Results

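The 10 genes described here are CDH1, EPCAM, KRT8, KRT18, KRT19, CLDN3, CLDN4, CLDN7, TJP1 and VIM, which encode simple epithelial keratins, cell junction proteins and vimentin. They were taken by gene name, and all 10 were found among the 24154 genes measured. The study measured poly(A) RNA by sequencing in cells labelled HCT116, a human colorectal carcinoma line. One group, CPT2 knockdown, had received an siRNA against CPT2 for 48 h (n = 3), and its reference, NC, a negative control siRNA for 48 h (n = 3). CPT2 encodes carnitine palmitoyltransferase 2, a mitochondrial enzyme of fatty acid oxidation. All libraries carry the label of 1 cell line. Whether replicates were separate cultures is not in the labels, so the p-values reflect the spread among these libraries alone, and that spread may be technical.

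Epithelial cells hold together through adherens junctions, in which E-cadherin binds its like on the neighbouring cell, and through tight junctions, in which claudins seal the space between cells and are anchored by ZO-1. Inside the cell, type I and type II keratins pair into filaments that give mechanical strength. Vimentin forms the filaments of mesenchymal cells and is known to appear in epithelial cells that lose their junctions, a change called the epithelial-mesenchymal transition (EMT). HCT116 cells are known to form epithelial sheets with E-cadherin at their contacts.

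Libraries held 28353790 to 29449380 counts. CPT2 knockdown replicate 1 stood apart, with a score of 76.6 on the first principal component, against -16.02 and 16.03 in the other knockdown libraries and -44.6 to -13.6 in NC libraries. Mitochondrially encoded transcripts took 8.99% to 16.99% of counts in CPT2 knockdown libraries and 10.002% to 10.8% in NC libraries. CPT2 itself had 19.9 ± 1.23 CPM (counts scaled to the TMM-adjusted library size) after the knockdown and 27.1 ± 3.01 CPM in NC (SD, n = 3 each), with a log2 fold change of -0.44 (SE 0.17) that did not pass the test over all genes (edgeR adjusted p = 0.338). Its CPM were lower in every knockdown library than in any NC library, as for 12.2% of all tested genes. The longest CPT2 transcript has a GC content of 38.5%, and a value with offsets for GC content and length is not given here.

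Markers of colon epithelium were at or near 0 in the libraries labelled HCT116. Of 9 markers, all were under 1 FPKM (fragments scaled to transcript length and library size) in every library. Their summed level was 0.893 to 1.02 FPKM in CPT2 knockdown libraries and 0.388 to 0.874 FPKM in NC libraries. CDX1 and CDX2, the intestinal identity factors, had 0 counts in all 6 libraries, where 3 counts, the limit that a count of 0 allows, correspond to 0.118 CPM at most. These markers thus gave no sign of colon epithelium, and no profile of a colorectal line was set beside them to judge the label. Epithelial genes were uneven in level. Of the genes described below, CDH1, EPCAM and KRT19 were low, while KRT8, KRT18, CLDN7, CLDN4, ELF3 and JUP were at 10.8 FPKM or more on average in NC. An NC mean of at least 1 FPKM was reached by 8 of 14 epithelial regulators and EPCAM partners and by 13 of 21 tight junction genes. Near 0 in NC were ESRP1 (0.00558 FPKM), SPINT1 (0.0762 FPKM), CGN (0.0760 FPKM) and OCLN (0.216 FPKM). All these genes were named after their values were seen. The identity of the cells was not tested, and the groups are called by their labels. Markers of other cell types were also low apart from 1 gene a list. COL1A1, a collagen of fibroblasts, made up most of the 12.9 to 17.7 FPKM of its list in knockdown libraries and the 11.7 to 14.1 FPKM in NC libraries, while the other 7 fibroblast markers were under 1 FPKM. CDH5, the endothelial cadherin, likewise led the endothelial list, which summed to 12.9 to 20.6 FPKM in knockdown libraries and 22.3 to 28.2 FPKM in NC libraries, and the other 5 were under 1 FPKM. CD68, found in macrophages and in lysosomes of other cells, led the leukocyte list (a sum of 13.2 to 15.7 FPKM in knockdown libraries and 10.6 to 11.7 FPKM in NC libraries), and the other 5 were under 1 FPKM.

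The 10 genes differed widely in level, from KRT8 at the top to CLDN3 at the bottom, and E-cadherin, EPCAM and keratin 19 stood at the low end. KRT8 had 607 ± 86.5 FPKM in CPT2 knockdown libraries and 524 ± 17.7 FPKM in NC libraries (SD, n = 3 each), which placed it 75th of 19974 Ensembl genes by mean FPKM in NC. KRT18 had 560 ± 115 FPKM after the knockdown and 437 ± 41.8 FPKM in NC, at place 99. VIM followed with 217 ± 46.9 FPKM after the knockdown and 201 ± 3.42 FPKM in NC, at place 229. The claudins then spread widely. CLDN7 had 36.8 ± 4.53 FPKM after the knockdown and 31.3 ± 6.05 FPKM in NC, and CLDN4 had 13.9 ± 3.05 FPKM after the knockdown and 10.8 ± 1.08 FPKM in NC.

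Next came TJP1, with 3.39 ± 1.05 FPKM after the knockdown and 4.96 ± 0.618 FPKM in NC, and EPCAM, with 2.08 ± 0.242 FPKM after the knockdown and 1.68 ± 0.0708 FPKM in NC. CDH1, KRT19 and CLDN3 stayed under 1 FPKM in all 6 libraries. CDH1 had 0.330 ± 0.136 FPKM after the knockdown and 0.485 ± 0.0921 FPKM in NC, at place 11943. In NC libraries no neighbours in this order overlapped. In CPT2 knockdown libraries 3 neighbouring pairs overlapped: KRT8 with KRT18, TJP1 with EPCAM, and CDH1 with KRT19. The order of the 10 genes in NC was the same with TMM-scaled CPM per kilobase of the longest transcript and without each NC library.

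**Figure D1:**
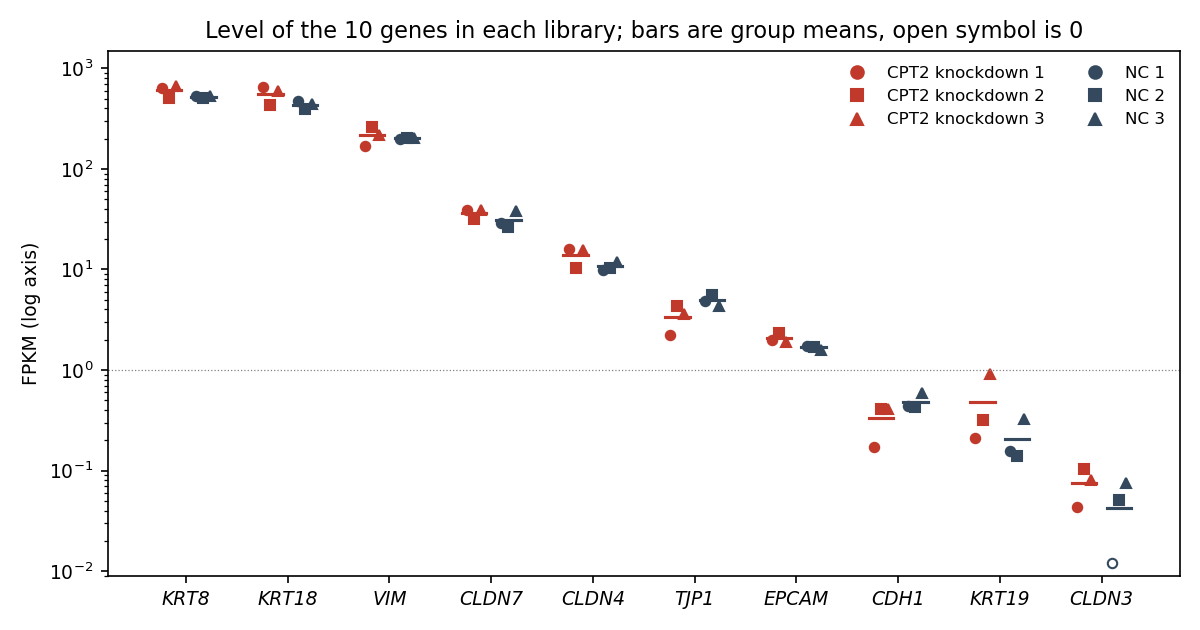
FPKM of the 10 genes on a log axis, in order of their mean in NC. Each point is a library (red, CPT2 knockdown; dark blue, NC), bars are group means and the open symbol is a library at 0. The points fall from 503 FPKM or more for KRT8 in every library to 0.104 FPKM or less for CLDN3, and the groups of each gene lie close together on this scale.

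Within their families the 10 genes were a mixed set, and the 7 that belong to the keratins, claudins or cadherins are described here beside relatives that were chosen after their values were seen. Of 55 keratin genes, 7 averaged at least 1 FPKM in NC and 34 had no count in any library. KRT7, a type II keratin of ductal and glandular epithelia, led them with 640 ± 123 FPKM after the knockdown and 633 ± 67.4 FPKM in NC, followed by KRT8 and KRT18. KRT17, a type I keratin of basal and stressed epithelia, stood at place 4 with 142 ± 15.6 FPKM after the knockdown and 126 ± 24.3 FPKM in NC. Among 24 claudin genes, CLDN7 and CLDN4 were the most abundant. Among 23 genes named CDH, CDH1 stood at place 5, behind CDH5, CDH24, CDH2 and CDH13. CDH5 had 17.2 ± 4.25 FPKM after the knockdown and 24.7 ± 2.86 FPKM in NC. CDH2, the neural cadherin of mesenchymal cells, had 2.59 ± 1.15 FPKM after the knockdown and 4.23 ± 0.685 FPKM in NC.

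**Figure D2:**
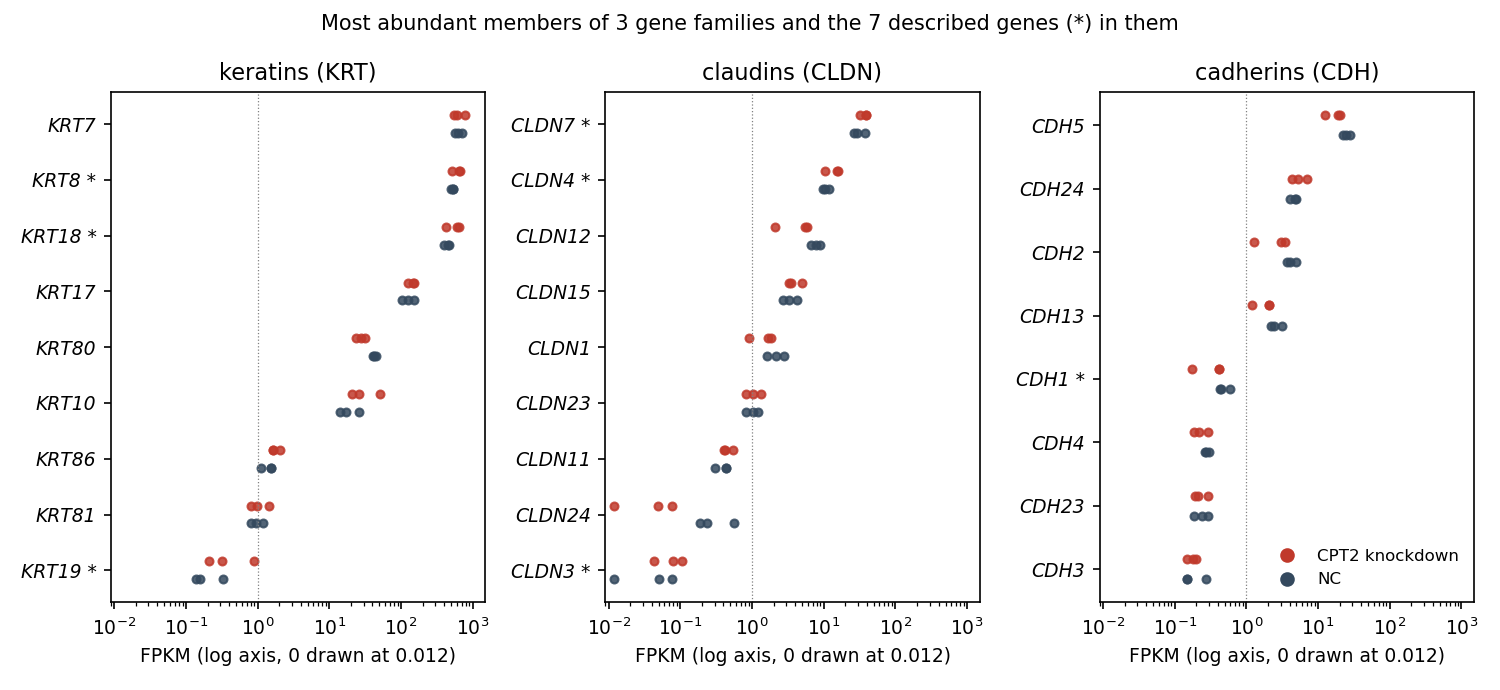
FPKM on a log axis for the 8 most abundant genes of the keratin, claudin and cadherin families and for the described genes in them (marked with *), with 1 point per library and CPT2 knockdown above NC. KRT8 and KRT18 sit beside KRT7 at the top of the keratins and CLDN7 leads the claudins, while CDH1, KRT19 and CLDN3 lie under 1 FPKM.

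None of the 9 genes that could be tested differed between CPT2 knockdown and NC past the test. Counts were tested with edgeR's quasi-likelihood test over 15302 genes, with Benjamini-Hochberg adjustment and a threshold of 0.05, which called 2 genes in all (0.0131%). CLDN3 did not pass the filter on low counts, and of the 9 others tested 0 were called. By an unadjusted p under 0.05, 1 of the 9 stood out, KRT18, where 14.5% of all tested genes did (9.18% of all tested genes were past it and higher in the knockdown). The CPM of the groups did not overlap for 1 of the 9, EPCAM, against 24.4% of all tested genes, 12.2% in each direction. DESeq2 gave an adjusted p to 6 of the 10, not to CDH1, EPCAM, KRT19 and CLDN3, and called 0 of the 6 (0.169% of all genes with an adjusted p). By limma-voom 0 of the 9 were called (0.00654% of all tested genes). At an unadjusted p under 0.05 stood 1 of the 10 by DESeq2, where 2802 of 20318 genes did, and 1 of the 9 by limma-voom, where 2309 of 15302 genes did. With the replicate number as a block, edgeR called 0 of the 9, where it called 4.14% of all tested genes. Under that block 5 of the 9 had an unadjusted p under 0.05, where 4689 of 15302 genes did. Without CPT2 knockdown replicate 2 it was also 5 of the 9, where 5615 of 15635 genes did. In the authors' deposited table the 8 genes given a p-value were all called normal, where 4.15% of genes were called up or down. Fitted log2 fold changes (knockdown over NC) were positive for 7 of the 9 and negative for CDH1 and TJP1, where 7759 of 15302 tested genes were positive. Their median was 0.34, against 0.01 over all tested genes, and it was 0.19 with offsets for GC content and length. An exact permutation test over 3 against 3 libraries cannot go below p = 0.1.

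**Figure D3:**
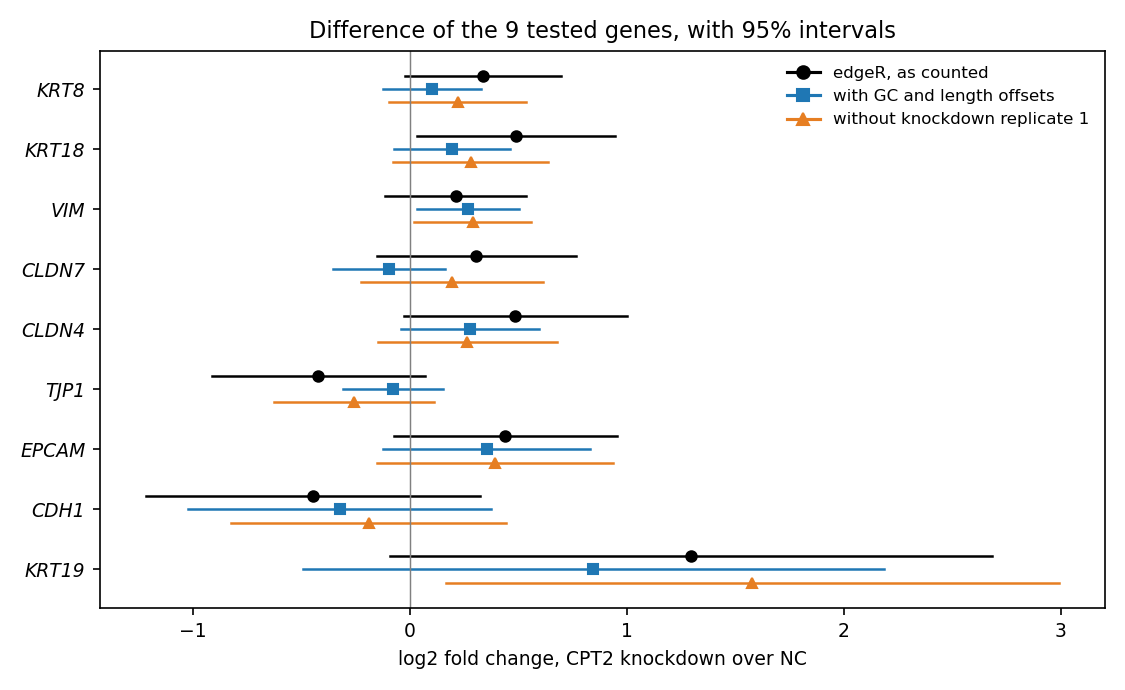
Log2 fold change, CPT2 knockdown over NC, with its 95% interval for the 9 tested genes: as counted (black), with offsets for transcript GC content and length (blue) and without CPT2 knockdown replicate 1 (orange). As counted, the interval of KRT18 alone leaves out 0. With the offsets the point of CLDN7 turns below 0 while its interval spans 0, and the interval of VIM alone leaves out 0. Without CPT2 knockdown replicate 1 the intervals of VIM and KRT19 leave out 0. None of the 9 genes was called in these fits.

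KRT8 and KRT18, the type II and type I keratins that pair in simple epithelia, were higher in CPT2 knockdown replicates 1 and 3 than in any NC library, and replicate 2 lay within the range of NC for both. KRT8 (ENSG00000170421) lies on the minus strand of chromosome 12, positions 52897187 to 52949954 (GRCh38, GENCODE 29), and KRT18 (ENSG00000111057) beside it on the plus strand at 52948871 to 52952901. In CPM, KRT18 had 1220, 705 and 982 CPM in CPT2 knockdown replicates 1 to 3, against 763, 609 and 698 CPM in NC replicates 1 to 3. Its log2 fold change was 0.49 (SE 0.20, 95% interval 0.03 to 0.95, edgeR adjusted p = 0.338), and it was 0.28 when CPT2 knockdown replicate 1 was left out. With CPT2 knockdown replicate 2 left out it was 0.67 (95% interval 0.31 to 1.03, edgeR adjusted p = 0.0728). KRT8 had 1432, 1003 and 1332 CPM in CPT2 knockdown replicates 1 to 3, against 1042, 938 and 1006 CPM in NC replicates 1 to 3. Its log2 fold change was 0.34 (SE 0.16, 95% interval -0.02 to 0.70, adjusted p = 0.338), and it was 0.22 without knockdown replicate 1 and 0.47 without knockdown replicate 2. With offsets for GC content and length the values were 0.19 for KRT18 and 0.10 for KRT8.

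The ratio of KRT8 to KRT18 in FPKM was 0.992, 1.18 and 1.11 in CPT2 knockdown replicates 1 to 3, against 1.13, 1.29 and 1.19 in NC replicates 1 to 3, and the groups overlapped. Exons of the pair overlap by up to 302 bases on opposite strands, and GENCODE 29 names 50 pseudogenes of KRT8 and 67 of KRT18. The sources used here do not give how the authors' counting treated strand and reads with several matches, so counts of both genes are uncertain to that extent. KRT19, the smallest type I keratin, which lacks a tail domain, had few counts. KRT19 (ENSG00000171345, minus strand of chromosome 17, 41523617 to 41528308) had 10, 14 and 39 counts in CPT2 knockdown replicates 1 to 3, against 7, 6 and 15 in NC replicates 1 to 3. Replicate 3 of the knockdown was the highest library, while replicate 1 lay within the NC libraries and replicate 2 close to the highest of them. The log2 fold change of 1.29 had an SE of 0.61 (95% interval -0.09 to 2.68, edgeR adjusted p = 0.338). It was 0.56 without CPT2 knockdown replicate 3 and 0.85 under the offsets for GC content and length. Leaving out CPT2 knockdown replicate 1 raised it to 1.58 (95% interval 0.17 to 2.99, edgeR adjusted p = 0.494). GENCODE 29 names 5 pseudogenes of KRT19.

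The claudins CLDN3, CLDN4 and CLDN7, strand-forming proteins of the tight junction, ran from a few counts to 1721 counts a library. CLDN3 (ENSG00000165215, minus strand of chromosome 7, 73768997 to 73770270) had 2, 4 and 4 counts in CPT2 knockdown replicates 1 to 3, against 0, 3 and 4 counts in NC replicates 1 to 3, and no difference was detectable at this depth. CLDN4 (ENSG00000189143), on the plus strand of the same chromosome at 73799542 to 73832693, had 37.2, 20.6 and 29.8 CPM in CPT2 knockdown replicates 1 to 3, against 19.95, 20.03 and 22.6 CPM in NC replicates 1 to 3. Replicates 1 and 3 of the knockdown lay above every NC library and replicate 2 within them. CLDN4 thus had a fitted difference of 0.49 on the log2 scale (SE 0.23, 95% interval -0.03 to 1.001, edgeR adjusted p = 0.338). It came to 0.27 if knockdown replicate 1 was dropped, to 0.68 if knockdown replicate 2 was dropped and to 0.28 under the offsets for GC content and length.

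CLDN7 (ENSG00000181885, minus strand of chromosome 17, 7259903 to 7263983), a claudin also found along the lateral membrane, where it binds EPCAM, had 61.6, 41.97 and 59.0 CPM in CPT2 knockdown replicates 1 to 3, against 42.3, 37.4 and 51.7 CPM in NC replicates 1 to 3. Replicates 1 and 3 of the knockdown lay above every NC library and replicate 2 among them. On the log2 scale the fitted difference was 0.31 (SE 0.20, 95% interval -0.15 to 0.77, edgeR adjusted p = 0.407). Dropping knockdown replicate 1 gave 0.19 and dropping knockdown replicate 2 gave 0.46. Under the offsets for GC content and length the sign turned (-0.097, SE 0.12, edgeR adjusted p = 0.711). Exons of CLDN7 overlap those of ELP5 on the opposite strand by 38 bases, and those of AC003688.1 on its own strand by 269 bases; AC003688.1 had 0 counts in all libraries.

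To show what lies before the start of the claudin that was nearly silent and of the mesenchymal filament gene that was abundant, the 250 bases upstream of the RefSeq starts of CLDN3 and VIM are given, with 30 bases before one of the 2 RefSeq starts of CLDN7. Promoters of 6 of the 10 genes were matched in RefSeq (GRCh38.p14). They were searched on both strands for CACCTG, the core letters of E-boxes bound by the SNAI and ZEB repressors, shown in capitals; its reverse complement is CAGGTG. CLDN3 (chr7:73770271-73770520, minus strand) and VIM (chr10:17227991-17228240, plus strand) held 0 matches. The KRT8 window, the CLDN4 window, which lies inside an exon of CLDN4, and the CLDN7 window outside any exon (chr17:7263214-7263463) also held 0. Of the 4 windows of TJP1, 1 held 1 match. For that TJP1 window and for VIM, the bases just after the RefSeq start were not marked as part of a GENCODE transcript. A CLDN7 window inside an exon of that gene (chr17:7262479-7262728, minus strand) held 4, which begin 174, 135, 20 and 9 bases before the start, and the pair nearest to the start stands in the bases shown (chr17:7262479-7262508). Over all 35116 RefSeq windows of this length, 17.5% held at least 1 match and 0.122% held 4 or more. A match is a description of letters and not a site of binding.
CLDN3: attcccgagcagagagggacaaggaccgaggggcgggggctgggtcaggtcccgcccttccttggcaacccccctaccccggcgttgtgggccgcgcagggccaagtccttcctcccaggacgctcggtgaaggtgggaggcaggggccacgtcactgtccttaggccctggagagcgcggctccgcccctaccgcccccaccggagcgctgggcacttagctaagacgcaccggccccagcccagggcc
VIM: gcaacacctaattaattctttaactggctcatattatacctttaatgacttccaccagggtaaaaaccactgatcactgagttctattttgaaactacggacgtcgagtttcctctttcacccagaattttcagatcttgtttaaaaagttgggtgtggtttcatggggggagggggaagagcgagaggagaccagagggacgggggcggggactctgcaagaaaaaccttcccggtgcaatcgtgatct
CLDN7: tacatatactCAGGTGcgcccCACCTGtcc

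TJP1, which encodes ZO-1, the scaffold that ties claudins to actin, had lower counts in CPT2 knockdown replicates 1 and 3 than in any NC library. TJP1 (ENSG00000104067, minus strand of chromosome 15, 29699367 to 29968865) had 17.8, 29.95 and 23.99 CPM in CPT2 knockdown replicates 1 to 3, against 30.4, 36.0 and 29.7 CPM in NC replicates 1 to 3. Replicate 2 of the knockdown lay between the NC libraries, so the CPM of the groups overlapped. In FPKM the highest knockdown library (4.32) lay just under the lowest NC library (4.37), and the share of all genes that separate so was not counted. TJP1 had a fitted log2 difference of -0.42 (SE 0.22, 95% interval -0.91 to 0.07, edgeR adjusted p = 0.344). This was -0.26 if knockdown replicate 1 was dropped and -0.076 under the offsets for GC content and length. Dropping knockdown replicate 2 gave -0.62 (95% interval -1.07 to -0.18, edgeR adjusted p = 0.0786). Its longest transcript has 7950 bases and a GC content of 44.8%, the lowest of the 10 genes.

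CDH1, which encodes E-cadherin, had fewer than 100 counts in every library. CDH1 (ENSG00000039068, plus strand of chromosome 16, 68737225 to 68835548) had 26, 60 and 62 counts in CPT2 knockdown replicates 1 to 3, against 67, 65 and 91 counts in NC replicates 1 to 3. Replicate 1 of the knockdown was the lowest library, and on the CPM scale the other knockdown libraries lay within the NC libraries, with 1.03, 2.14 and 2.12 CPM in CPT2 knockdown replicates 1 to 3 against 2.23, 2.11 and 2.90 CPM in NC replicates 1 to 3. In FPKM the highest knockdown library (0.409) lay just under the lowest NC library (0.427). The share of all genes whose groups separate in FPKM was not counted. CDH1 had a fitted log2 difference of -0.45 (SE 0.34, 95% interval -1.22 to 0.32, edgeR adjusted p = 0.458). It was -0.19 without CPT2 knockdown replicate 1 and -0.62 without CPT2 knockdown replicate 2. An antisense gene overlaps its exons by up to 263 bases and was not used here.

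EPCAM, an adhesion protein of epithelial cells that binds and stabilises claudins, was the only one of the 9 tested genes whose groups did not overlap in CPM. Groups without overlap were found for 24.4% of all tested genes, and for 12.2% with the knockdown higher. EPCAM (ENSG00000119888, plus strand of chromosome 2, 47345158 to 47387601) had 4.19, 4.31 and 3.43 CPM in CPT2 knockdown replicates 1 to 3, against 3.16, 2.95 and 2.68 CPM in NC replicates 1 to 3. These values rest on 106, 121 and 100 counts in knockdown libraries and 95, 91 and 84 counts in NC libraries. The difference of 0.44 on the log2 scale (SE 0.23, 95% interval -0.07 to 0.95) did not pass (edgeR adjusted p = 0.345, exact 2-sided permutation p = 0.1, the smallest possible). It was 0.35 with GC and length offsets and 0.30 on library size alone.

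VIM, which encodes vimentin, was abundant in all 6 libraries and did not differ past the test. VIM (ENSG00000026025, plus strand of chromosome 10, 17228259 to 17237593) had 402, 535 and 441 CPM in CPT2 knockdown replicates 1 to 3, against 403.6, 382 and 403.5 CPM in NC replicates 1 to 3. Replicates 2 and 3 of the knockdown lay above every NC library and replicate 1 within them. VIM had a fitted log2 difference of 0.21 (SE 0.14, 95% interval -0.11 to 0.53, edgeR adjusted p = 0.415), 0.082 without CPT2 knockdown replicate 2 and 0.08 on library size alone, a scaling that moves the median of all tested genes to -0.13. It was 0.27 with offsets for GC content and length (95% interval 0.03 to 0.50) and 0.29 without CPT2 knockdown replicate 1 (0.02 to 0.56). The ratio of VIM to KRT18 in FPKM was 0.26, 0.61 and 0.37 in CPT2 knockdown replicates 1 to 3, against 0.42, 0.51 and 0.46 in NC replicates 1 to 3, and the groups overlapped. The antisense gene VIM-AS1 overlaps exons of VIM by up to 641 bases and was not used here.

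Library by library, KRT8, KRT18, CLDN4 and CLDN7 moved alike and TJP1 moved the other way. They were grouped after their values were seen, and the share of all tested genes that moved so was not counted. Against the NC mean on the log2 CPM scale, these 4 genes lay at 0.50 to 0.83 in CPT2 knockdown replicate 1, at -0.05 to 0.04 in replicate 2 and at 0.42 to 0.52 in replicate 3. TJP1 lay at -0.84, -0.09 and -0.41. The first principal component over the libraries, with 53.2% of the variance, set the knockdown libraries in the same order. Its scores were 76.6, -16.02 and 16.03 in replicates 1 to 3. The 4 genes have transcripts of 55.7% to 59.6% GC, against a median of 48.9% over all tested genes. With the trend of each library on GC content and length removed, they lay at -0.17 to 0.44 in replicate 1, -0.16 to -0.02 in replicate 2 and 0.03 to 0.37 in replicate 3, and TJP1 at -0.15, -0.00034 and -0.08. CLDN4 was then still at 0.44 and 0.37 in replicates 1 and 3, and VIM at 0.43 in replicate 2. The part of GC content in these differences was not tested beyond these values.

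**Figure D4:**
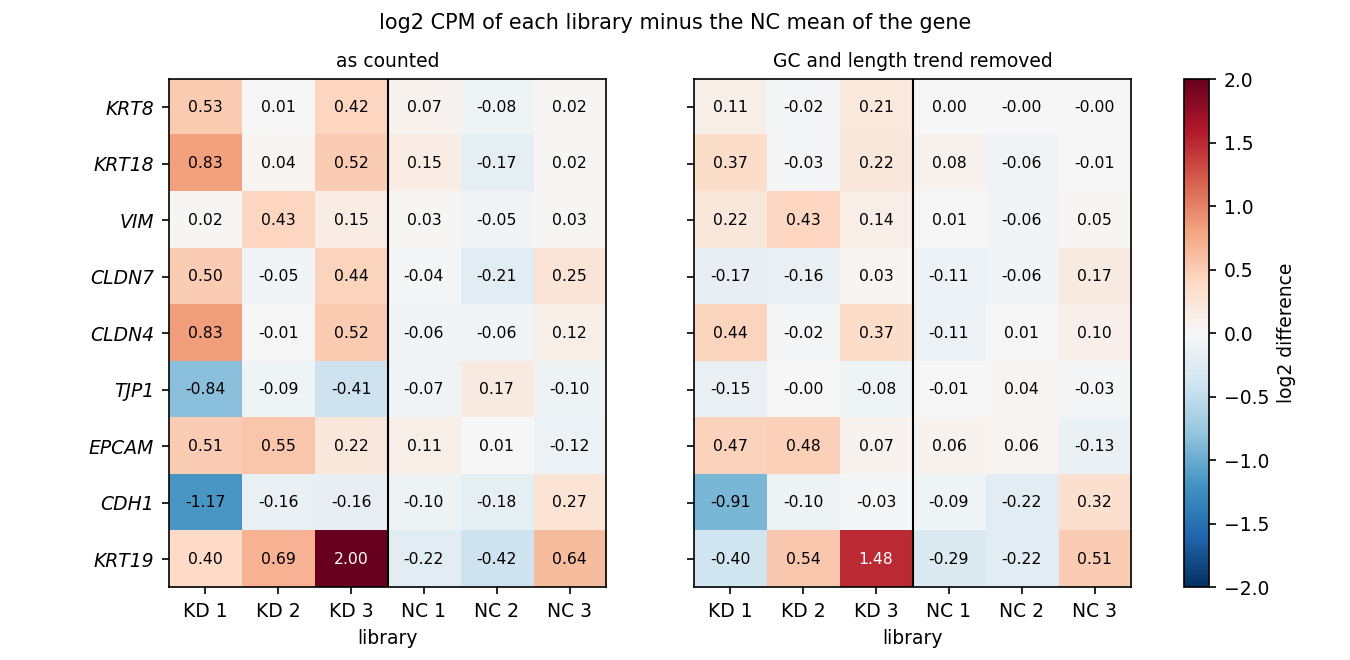
Log2 CPM of each library minus the mean of the 3 NC libraries for the 9 tested genes, as counted on the left and with that trend on GC content and length taken out on the right, with CPT2 knockdown (KD) left of NC. As counted, KRT8, KRT18, CLDN4 and CLDN7 are raised in knockdown replicates 1 and 3 and near 0 in replicate 2, and on the right most cells are paler.

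Of the other junction genes, 0 were called, where 0.0131% of all tested genes were. Of 12 adherens junction genes, 10 were tested, 4 higher and 6 lower, with a median log2 fold change of -0.28 (-0.10 with GC and length offsets and -0.13 without CPT2 knockdown replicate 1). JUP, plakoglobin, the catenin shared with desmosomes, was the most abundant of them, with 449 ± 9.71 FPKM in CPT2 knockdown libraries and 405 ± 19.2 FPKM in NC libraries. JUP had a log2 fold change of 0.28 (SE 0.14), CTNND1, the p120 catenin that binds cadherin tails, -0.36 (SE 0.16), and VCL, vinculin, -0.44 (SE 0.20). Under the offsets JUP turned to -0.04, and CTNND1 and VCL stood at -0.10 each; dropping knockdown replicate 1 gave 0.18 for JUP. Of 21 tight junction genes, 19 were tested, 8 higher and 11 lower, with a median of -0.16. LSR, which gathers at contacts of 3 cells, had 0.45 (SE 0.18), and TJP3, the ZO-3 scaffold, 0.41 (SE 0.18). With GC and length offsets LSR had -0.002 and TJP3 0.02. Of 12 desmosome and hemidesmosome genes, 11 were tested, 4 higher and 7 lower, with a median of -0.22 (-0.07 under the offsets and -0.01 without knockdown replicate 1). ITGA6, a laminin receptor subunit, had -0.71 (SE 0.29), PKP3, a plakophilin, 0.48 (SE 0.23), and PLEC, plectin, the most abundant of the list, 0.43 (SE 0.23). Under the offsets these stood at -0.38 for ITGA6, -0.07 for PKP3 and 0.08 for PLEC. Dropping knockdown replicate 1 gave -0.47 for ITGA6, 0.29 for PKP3 and 0.10 for PLEC.

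Of 22 other intermediate filament genes, 13 were tested, 11 higher and 2 lower, with a median log2 fold change of 0.31, which was -0.06 with GC and length offsets and 0.19 without knockdown replicate 1 (median GC content 61.0%). KRT80, a type II keratin, was lower in all 3 CPT2 knockdown libraries than in any NC library, with 117 ± 9.46 CPM after the knockdown and 166 ± 5.31 CPM in NC (SD, n = 3 each). Of all tested genes, 12.2% were likewise lower in CPM without overlap. At -0.50 on the log2 scale (SE 0.13) KRT80 did not pass (edgeR adjusted p = 0.338), and it was -0.67 with GC and length offsets. DES, desmin, of muscle filaments, had 1.09 (SE 0.36) at 1.07 ± 0.00359 CPM after the knockdown and 0.499 ± 0.0963 CPM in NC, and 0.67 under the offsets. DES had few counts, 27, 30 and 31 in CPT2 knockdown replicates 1 to 3 against 17, 12 and 17 in NC replicates 1 to 3. It did not pass (edgeR adjusted p = 0.338). In the edgeR test 0 genes of this list were called, where 0.0131% of all tested genes were. KRT7 had 0.16 (SE 0.17), which turned to -0.33 under the offsets.

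Genes that govern the epithelial state were uneven in level and 0 were called, where 0.0131% of all tested genes were. Of 14 epithelial regulators and EPCAM partners, 8 averaged at least 1 FPKM in NC. ELF3, an epithelial transcription factor, had 103 ± 11.5 FPKM after the knockdown and 108 ± 8.14 FPKM in NC. GRHL2, an activator of CDH1, had 0.00512 ± 0.00887 FPKM after the knockdown and 0.0123 ± 0.0213 FPKM in NC, and was chosen after its values were seen. Among the 9 tested genes of this list 4 were higher and 5 lower (median -0.07). The smallest p-values belonged to ST14, matriptase, at 0.33 (SE 0.21), and KLF5, a factor of proliferating epithelium, at -0.38 (SE 0.31). Without knockdown replicate 1 they stood at 0.17 for ST14 and -0.11 for KLF5, and under the offsets ST14 turned to -0.04.

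Of 9 EMT transcription factors, 8 were tested, 4 higher and 4 lower, with a median log2 fold change of 0.03, which turned to -0.14 under the offsets and to -0.10 without knockdown replicate 1. FOXC2 had 5.36 ± 1.55 FPKM after the knockdown and 4.38 ± 0.603 FPKM in NC, SNAI2 had 3.81 ± 2.79 FPKM after the knockdown and 4.03 ± 0.923 FPKM in NC, and ZEB1 had 2.22 ± 0.974 FPKM after the knockdown and 3.78 ± 0.826 FPKM in NC. TWIST2 had 3.71 ± 0.150 FPKM after the knockdown and 3.50 ± 0.310 FPKM in NC, and TWIST1 had 2.70 ± 0.455 FPKM after the knockdown and 2.00 ± 0.129 FPKM in NC. SNAI1, ZEB2, TCF4 and PRRX1 averaged under 1 FPKM in both groups. TCF4 had the smallest p of the list (log2 fold change -1.04, SE 0.36, edgeR adjusted p = 0.338) and TWIST1 the next (0.50, SE 0.23). Under the offsets TCF4 stood at -0.53 and TWIST1 at 0.16. Of 15 mesenchymal and invasion genes, 12 were tested, 4 higher and 8 lower (median -0.08). S100A4, a calcium-binding protein of motile cells, was the most abundant, with 699 ± 264 FPKM after the knockdown and 548 ± 77.5 FPKM in NC. FN1, fibronectin, had a log2 fold change of -0.50 (SE 0.22) and CDH2 -0.61 (SE 0.30). Of this list 0 were called, where 0.0131% of all tested genes were. FN1 stood at -0.06 under the offsets, and CDH2 at -0.33 without knockdown replicate 1.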

How the data were processed

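The deposited table gives, per the file headers, raw counts and FPKM for each gene in each library, together with the p-value, log2 fold change and call of the authors' own comparison. The gene models and library sizes behind the FPKM are not given in the sources used here. The submitters' processing notes list GRCh38, HISAT2, TopHat2, Bowtie2, StringTie, DESeq2 and edgeR, with no version and no role. After 17 stray lines were left out, 24154 genes remained, of which 4180 were new loci of the authors (5.32% to 7.18% of counts). All 19974 Ensembl IDs matched GENCODE 29, which gave coordinates, exon overlaps and, from the longest transcript, length and GC content. Per the labels, mRNA was captured on oligo(dT) beads and no strand marking is named.

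The test of the counts was that of edgeR 4.0.16 under R 4.3.3 (filterByExpr, TMM scaling, robust quasi-likelihood F-test) over all genes. CPM are on TMM-scaled library sizes. Intervals cover the spread between libraries. Levels between genes are compared per length. The alternatives were DESeq2 1.42.0, limma-voom and limma-trend on log2(FPKM + 1) or log2(FPKM + 0.1) with limma 3.58.1, other scalings and filters, the replicate number as a block, each library left out, and per-library loess offsets on GC content and length (span 0.4), fitted over the 13207 tested genes with annotation. The 10 genes, 7 gene lists, 4 marker lists and alternatives were chosen with earlier results of these data known. Named from each list were the 2 tested genes of the smallest p-value and the 1 of the highest mean FPKM, and all EMT transcription factors by level. One gene that this rule names is not reported here. Symbols were matched by name or synonym in RefSeq.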

Additional observations from a re-analysis of the deposited data

How the results depend on the processing

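Under each of the 19 alternatives, 0 of the 10 genes were called among those it gave an adjusted p. DESeq2 gave one to 6 of them, and the stricter filter kept 6. The count over all genes, 2 as tested, was 13 with DESeq2 (among the 7712 genes with an adjusted p), 1 with limma-voom, 1 with the stricter filter on low counts (1 CPM in 3 libraries and a mean of 5 CPM), 0 with limma-trend on log2(FPKM + 1) and 0 on log2(FPKM + 0.1), where 2055 and 1932 genes had an unadjusted p under 0.05. It was 4 with GC and length offsets and CPT2 knockdown replicate 1 left out, and 1 to 5 with single libraries left out. With the replicate number as a block it was 633, and 589 with the offsets as well; the block called 0 of the 10 genes, 1 desmosome gene (DSG2) and, with or without the offsets, 1 other intermediate filament gene (KRT80). Same-numbered libraries had correlations of their deviations across genes of 0.25, 0.36 and 0.0065 for replicates 1, 2 and 3. Libraries of unlike number ran from -0.32 (CPT2 knockdown replicate 1 with NC replicate 2) to 0.091. The values differ between the numbers, so this check does not settle whether the numbers pair the samples. Each knockdown library correlated best with the NC library of its number, but NC replicate 3 correlated best with CPT2 knockdown replicate 1 (0.091).

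Of the 9 tested genes, 8 kept the sign of their log2 fold change under every alternative that gave a value, and CLDN7 reversed with GC and length offsets (-0.097), with offsets and the replicate block (-0.095) and with offsets and without CPT2 knockdown replicate 1 (-0.061). With single libraries left out, values ran from 0.28 to 0.67 for KRT18, 0.22 to 0.47 for KRT8, 0.56 to 1.79 for KRT19, 0.27 to 0.68 for CLDN4, 0.19 to 0.46 for CLDN7, -0.62 to -0.26 for TJP1, -0.62 to -0.19 for CDH1, 0.37 to 0.54 for EPCAM and 0.08 to 0.29 for VIM. The lowest adjusted p over all alternatives was 0.0546, for KRT18 with the block. The stricter filter gave no value for CDH1, EPCAM and KRT19. The causes of these changes were not tested. Depth limits CLDN3, KRT19 and CDH1, which had 0 to 91 counts a library.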

Other observations

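Likeness of genes to VIM and CDH1 over the 6 libraries was measured as the root mean square difference of log2 CPM centred on each gene's own mean, and searched among 9539 genes of at least 10 CPM. The genes nearest to VIM were UBE2T (0.0187), CDKN3 (0.0358) and TIMM21 (0.0393), and 110 genes lay within 0.1 of it. The genes nearest to CDH1 were ZBED8 (0.0981), MOSPD1 (0.124) and AK4 (0.125), and 235 genes lay within 0.2 of it. CDH1 had 26 to 91 counts a library, under the 10 CPM asked of the genes searched, so its nearest genes are uncertain. Over 6 libraries VIM itself spread by 0.160 and CDH1 by 0.439 on the same measure.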
